A study of Drosophila melanogaster with 2 samples.

Results

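The 10 Polycomb and trithorax group genes were examined for binding of the GFP-tagged transcription factor tup in Drosophila embryos. They were the Polycomb group genes ph-p, ph-d, Psc, Su(z)2, Pc and E(z) and the trithorax group genes osa, brm, trx and ash1, 10 of the 18277 annotated genes considered. A peak was assigned to a gene when its summit, the position of highest signal, lay from 5 kb upstream of the gene to the gene's end along its strand. By this rule 14 of the 2241 peaks of the optimal list, the authors' list after a reproducibility threshold, belonged to 7 of the 10 genes. The list held the 2241 strongest peaks of the pooled list, called on both replicates together. Of them, 90.4% had a summit within 100 bp in the list of each replicate. The genes were chosen with these peak lists known, so the numbers of peaks and their signals describe the choice and carry no test.

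Both samples were whole embryos collected at 0 to 24 hours, males and females pooled, of 1 transgenic line, strain Tup-GFP, in which tup was fused at its C-terminus to GFP. Chromatin was immunoprecipitated with an anti-GFP antibody and sequenced (ChIP-seq). The samples were 2 biological replicates of 1 group, with no second condition to compare, and the control experiment used for peak calling was not analysed here. Because all cells of the embryo were mixed, strong binding in few cells and weak binding in many cannot be told apart. Read totals were not in the peak lists, so the depth behind each peak is unknown.

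The product of tup is the fly's Islet-type LIM-homeodomain factor, known for roles in motor neuron identity, heart and dorsal closure. Polycomb group proteins keep developmental genes such as the Hox genes silent, and trithorax group proteins keep them active. PRC1 compacts chromatin and ubiquitinates histone H2A, and PRC2 methylates histone H3. On the trithorax side, the Brahma complex moves nucleosomes, and trx and ash1 encode histone methyltransferases. Polycomb group genes, ph among them, are themselves known targets of Polycomb complexes.

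Summit sequences are shown for 5 of the 7 genes, for the strongest peak of each, the weaker osa peak and the weakest trx peak, to let the base composition and motif matches be read directly. Each is the summit base with 50 bp on either side, read 5′ to 3′ on the minus strand, which is the strand of all the genes shown, from the RefSeq copy of the dm6 assembly. Capitals mark matches on either strand to the motifs described with the base composition.
ph-p strongest, chrX:2137276-2137376: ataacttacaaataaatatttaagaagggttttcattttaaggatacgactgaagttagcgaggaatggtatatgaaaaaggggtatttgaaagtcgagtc
ph-d upstream, chrX:2124045-2124145: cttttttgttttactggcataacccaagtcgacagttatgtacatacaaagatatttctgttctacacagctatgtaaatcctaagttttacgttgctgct
brm promoter, chr3L:15982939-15983039: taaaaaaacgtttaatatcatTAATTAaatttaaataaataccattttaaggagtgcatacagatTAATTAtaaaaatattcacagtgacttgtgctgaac
osa strongest, chr3R:17704336-17704436: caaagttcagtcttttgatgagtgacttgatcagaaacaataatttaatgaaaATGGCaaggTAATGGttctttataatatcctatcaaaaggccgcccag
osa weaker, chr3R:17700543-17700643: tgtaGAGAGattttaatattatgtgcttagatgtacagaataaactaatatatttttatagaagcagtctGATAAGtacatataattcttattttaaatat
trx strongest, chr3R:14283847-14283947: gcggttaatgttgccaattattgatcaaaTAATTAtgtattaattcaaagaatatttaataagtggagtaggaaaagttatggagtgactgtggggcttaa
trx weakest, chr3R:14285164-14285264: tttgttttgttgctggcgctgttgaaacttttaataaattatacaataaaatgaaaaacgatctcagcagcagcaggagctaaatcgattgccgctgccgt
The brm window holds TAATTA at separate positions, the osa strongest window holds a Pho core match close to an Islet-type match, and the ph-p, ph-d and weakest trx windows hold none of the motifs searched.

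Of the 10 genes, 7 held at least 1 optimal summit, beside 20.6% of all annotated genes and 31.5% of the 3976 protein-coding genes whose regions were 8556 to 35533 bp long, the range of the 10. The 14 optimal summits came from 68 pooled candidates, peaks called on both replicates together before the reproducibility threshold. That was 20.6% of their candidates, against 7.47% of all 30000. Per 10 kb of region the 10 genes held 0.760 optimal summits, against 0.192 over the regions of all genes. All 10 genes held a pooled candidate, as did 80.1% of annotated genes. ph-p, Psc, osa and trx held 2 or more optimal summits, and among all genes with any, 19.5% did. ph-p and trx held 3 or more, against 4.72%. Both of these shares were over genes of any region length. The regions of the 10 genes had a median of 17022.5 bp, against 6646 bp for all genes.

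**Figure D1:**
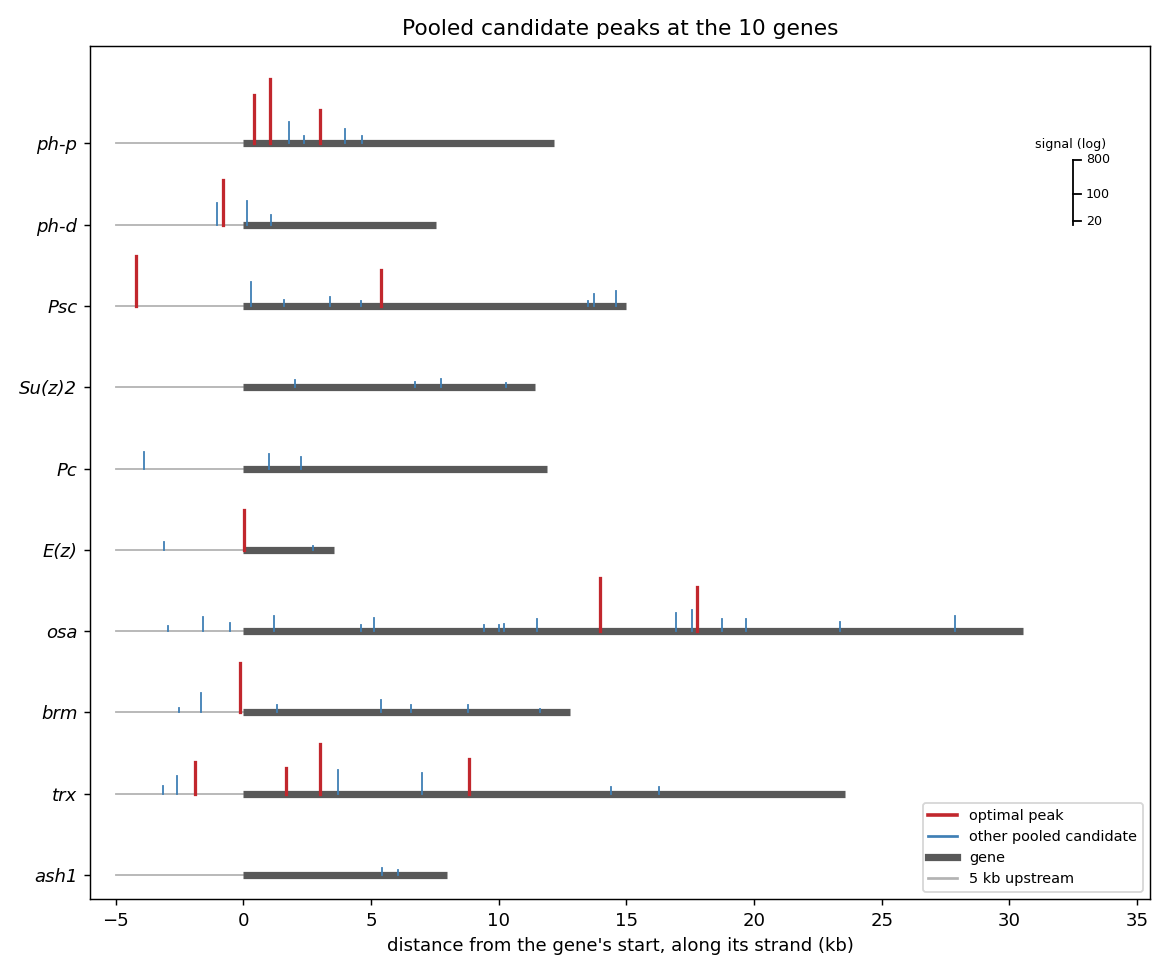
Pooled candidate peaks (lines; height is the caller's signal on a log scale) along the 10 genes, in kb from each gene's start along its strand; grey bars are genes, thin grey lines the 5 kb upstream. Red lines are the 14 optimal peaks, which lie at 7 genes, and Su(z)2, Pc and ash1 have blue lines only.

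In PRC1, ph-p and ph-d are neighbouring paralogs of the polyhomeotic subunit on the X chromosome. ph-p carried the strongest peak of the set. The caller's signal at chrX:2137193-2137523 was 794 in the optimal list, rank 7 of 2241, with its summit 471 bp from an annotated start site of ph-p. In replicate 1 this peak had signal 457 and rank 8 of 30000, and in replicate 2 signal 343 and rank 7. Its place near the top was therefore alike in both lists. A second ph-p peak, 420 bp downstream of the gene's start, had signal 302 and rank 112, and another in an intron, 3025 bp downstream, had signal 117 and rank 880. All 3 summits lay within 2605 bp, and the strongest signal was 6.78 times the weakest.

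ph-d, the paralog, had 1 optimal peak, 809 bp upstream of its start and intergenic. Its signal was 236, rank 203, with signal 171 and rank 144 in replicate 1 and signal 64.1 and rank 454 in replicate 2. The ph-d promoter itself lay just below the optimal list. A candidate 152 bp from its start had pooled signal 67.8, where the weakest optimal peak had 68.7. In replicate 1 that candidate had signal 57.8 and rank 1449, and replicate 2 had no summit within 100 bp of it. Within 100 bp either side of each ph-p summit and of the ph-d summit, the longest shared run of bases was 8 to 10. Stretches of 36 bases from the 14 peaks occurred more than once on the assembled chromosomes, counting either strand, for 1 peak only. It was the strongest of ph-p, where 8 of 296 stretches (2.70%) did. The place of the further copies was not recorded.

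Psc encodes a PRC1 subunit and lies on chromosome arm 2R beside its paralog Su(z)2. Psc held 2 optimal peaks. The upstream one was 4192 bp from the Psc start and 181 bp from the start of lncRNA:CR44339, a long non-coding RNA gene, with signal 328 and rank 95. Its replicate signals were 276 (rank 41) and 50.8 (rank 756), so it stood much higher in replicate 1. The intronic one, 5391 bp downstream of the start, had signal 137 and rank 656, with ranks of 770 and 657 in the replicates. A candidate 19 bp from a Psc start site had pooled signal 65.9, just below the list, with ranks of 10254 in replicate 1 and 1052 in replicate 2.

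Su(z)2 and Pc had no optimal summit. The 4 pooled candidates of Su(z)2 reached a signal of 26.5, rank 16098 of 30000. Replicate 1 alone held a Su(z)2 summit of signal 49.6, rank 1969, at the far upstream edge of the region and 2289 bp from the start of CG33798, with no pooled summit within 6422 bp. In replicate 2 the strongest Su(z)2 candidate had signal 14.5. Pc, which encodes the subunit of PRC1 that reads methylated histone H3, had 3 pooled candidates of at most 43.3, rank 5092. Neither gene had a pooled candidate within 500 bp of its own start sites.

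E(z), the methyltransferase of PRC2, had 1 optimal peak 15 bp from its start, at a promoter shared with the oppositely oriented Cnep1r2. Its signal was 177, rank 383. Replicate 1 gave signal 133 and rank 274, and replicate 2 gave signal 40.5 and rank 1133. Among the 7 genes with an optimal peak, the strongest peak of E(z) had the lowest signal.

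In the Brahma complex, brm encodes the ATPase and osa a subunit that defines one form of the complex. The only optimal peak of brm lay 120 bp from its start, between brm and the oppositely oriented Arl1, with signal 316 and rank 105. Its replicate signals were 259 (rank 52) and 58.0 (rank 578). osa had no pooled candidate within 500 bp of its start. Its 2 optimal peaks lay deep in the gene, 13964 and 17757 bp downstream, near the long non-coding RNA genes lncRNA:CR46035 and lncRNA:CR46036. The first, at chr3R:17704266-17704542, lay in a non-coding exon and had signal 400 and rank 54, with ranks of 67 and 54 in replicates 1 and 2. The second lay 148 bp from the lncRNA:CR46036 start and had signal 227, with ranks of 106 and 1522. So the replicates ranked the first osa peak alike and the second apart.

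trx held 4 optimal summits, the most of the 10 genes, spread over 10731 bp. The strongest lay in an intron 3006 bp downstream of the start, with signal 310 and rank 108, and with signals of 249 and 58.3 in replicates 1 and 2. The other intronic peaks, at 1689 and 8850 bp, had signals of 73.9 and 126. The fourth lay upstream of trx but 287 bp from the start of red, a neighbouring gene, with signal 108. None of the 4 lay within 1 kb of the trx start site, and trx had no pooled candidate within 500 bp of it. ash1 had no optimal summit, and its 2 pooled candidates reached a signal of 24.5, rank 19238.

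Beyond the regions' ends, strong peaks lay close to ash1 and Pc. The second strongest peak of the optimal list, chr3L:19590450-19590796 with signal 1172, had its summit 155 bp past the end of ash1 and 94 bp from the start of CG14100. It ranked 2 in both replicates. Another, with signal 404 and rank 51, lay 1574 bp past the end of Pc and 94 bp from the start of CG11309, with ranks of 78 and 44 in the replicates. Counted by summit, neither belongs to ash1 or Pc. Counted by any overlap with the region, the first adds ash1, for 8 genes and 15 summits.

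**Figure D2:**
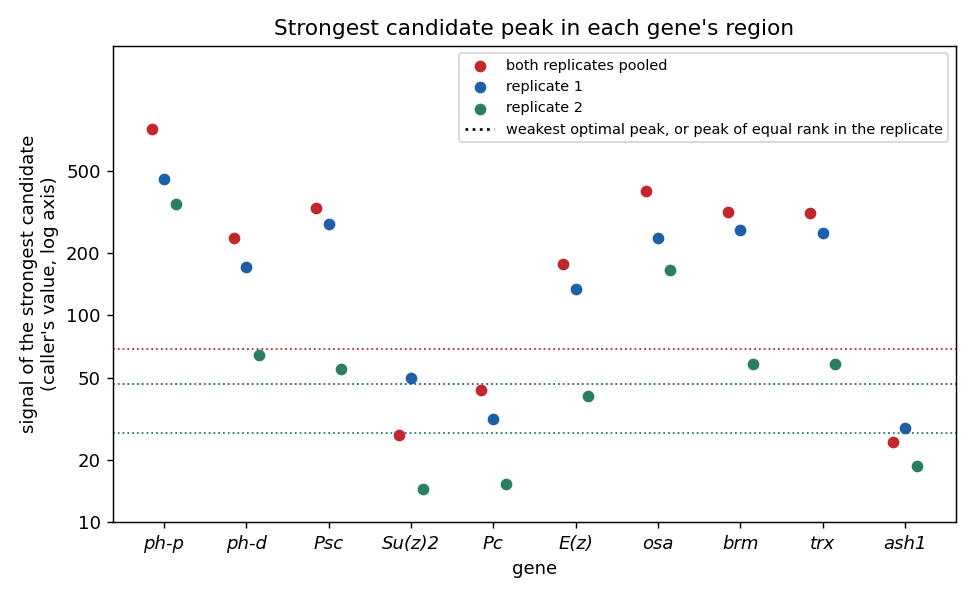
Strongest candidate in each gene's region, as the caller's signal (log axis), in the pooled list and in each replicate; dotted lines mark the weakest optimal peak (68.7) and the signal at the same rank in replicate 1 (46.8) and replicate 2 (27.1). Pc and ash1 are below the matching line in all 3 lists, and Su(z)2 is above it in replicate 1 only (49.6).

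By place, 7 of the 14 summits lay at a promoter, within 500 bp of any annotated start site, beside 55.2% of all optimal summits. A further 5 lay in introns, beside 31.4% of all, 1 in a non-coding exon, beside 1.12%, and 1 between genes, beside 11.1%. None lay in a coding exon, and only 7 of all 2241 optimal summits (0.312%) did. Of the 54 candidates in these regions outside the optimal list, 21 lay in coding exons of any gene (38.9%), beside 15.0% of all such candidates. Some of these lay upstream of the member gene, in exons of neighbours, as at brm, E(z) and osa. The coding share of the regions was not computed. Of the 10 genes, 6 (ph-p, ph-d, Psc, E(z), brm and trx) had an optimal summit whose nearest start site was their own. The share over annotated genes of any region length was 9.38%. Among the 10, ph-p, E(z) and brm had an optimal summit within 500 bp of their own start site. The share over all annotated genes was not computed for this measure.

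The signals were high within the list. They ran from 73.9 to 794 with a median of 232, where all optimal peaks had a median of 102 and a range of 68.7 to 1283. The median was passed by 13 of the 14, and 8 ranked within the first 250. All 14 were matched by a summit within 100 bp in both replicates, beside 90.4% of the optimal list. Of these, 12 were also among the 2241 strongest peaks of each replicate, beside 55.7%, and the exceptions were the trx peaks at 1689 and 8850 bp. Taken alone, the 2241 strongest of replicate 1 reached 8 of the 10 genes, adding Su(z)2, and 20.4% of all genes. Those of replicate 2 reached 7, the same 7 genes as the optimal list, and 20.1% of all genes.

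The 2 replicates gave these peaks unequal weight. Signal is on a different scale in each list, and over the 2025 optimal peaks matched in both, replicate 1 had a median of 1.65 times the signal of replicate 2. Of the 14 peaks, 10 had a higher ratio than that and 4 a lower one. The lowest ratio, 1.33, was that of the strongest ph-p peak. The highest, 6.18, was that of the trx peak at 8850 bp, at the 97.7th percentile of all matched optimal peaks. The Psc upstream peak (5.43), the weaker osa peak (5.64), the brm peak (4.46) and the strongest trx peak (4.26) were also above the 93rd percentile. Across the 14 peaks the ranks in the replicates had a Spearman coefficient of 0.697, and across all 2025 it was 0.45. These are descriptions, since the peaks share their 2 libraries and were selected on both. What sets the ratios apart was not tested.

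**Figure D3:**
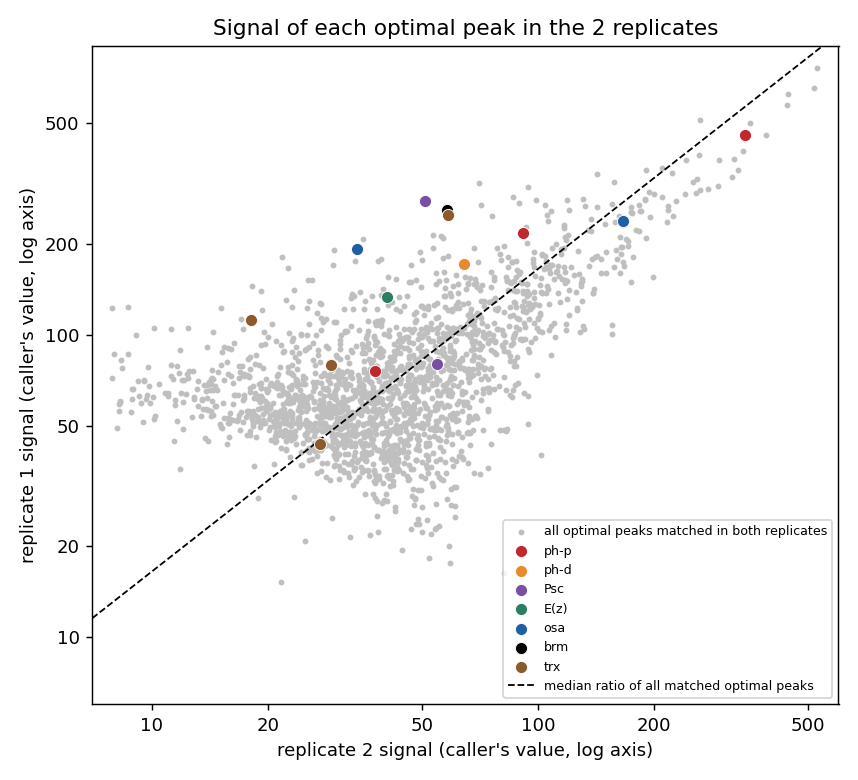
Signal of each optimal peak in replicate 1 against replicate 2 (caller's value, log axes), with the 14 assigned peaks coloured by gene and all matched optimal peaks in grey; the dashed line is the median ratio of 1.65. The strongest ph-p and osa peaks and the Psc intronic peak lie just below the line. The trx peak at 8850 bp lies farthest above it, and the Psc upstream, brm, strongest trx and weaker osa peaks also lie well above it.

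The summit sequences were rich in A and T. Median GC content of the 14 windows of 50 bp either side was 27.7%, from 20.8% to 45.5%, and 10 of them were below the median of all optimal windows, 33.7%. Candidates overlapping no optimal peak had a median of 43.6%, and the 54 other candidates of these same genes 48.5%. The E(z) window had the highest GC content, 45.5%, and the weaker osa window and the trx window at 8850 bp the lowest, 20.8%. The part of GC content in these signals was not tested.

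**Figure D4:**
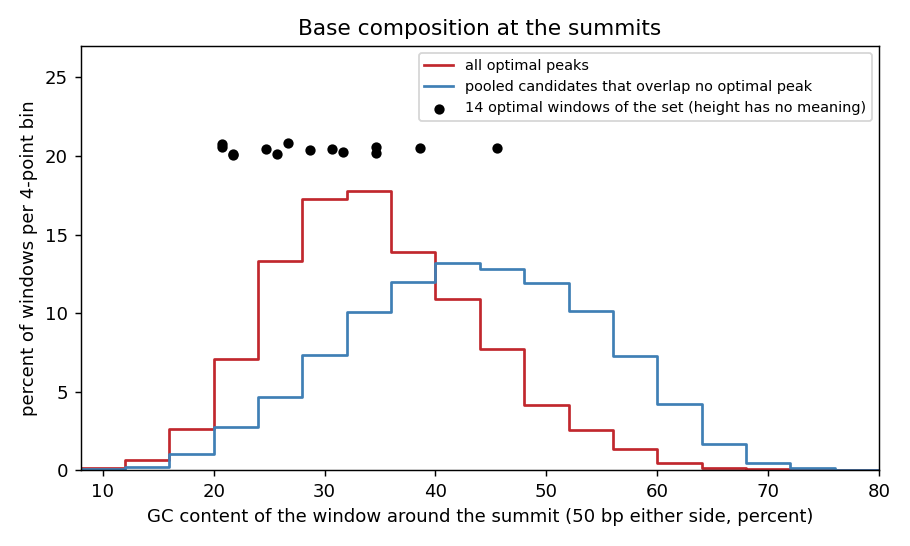
GC content (percent) of windows 50 bp either side of summits: shares of all optimal peaks and of pooled candidates that overlap none, with the 14 assigned windows marked. Most of the 14 lie below the optimal median of 33.7%, and the E(z) window at 45.5% lies farthest right.

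Motifs were counted on either strand in the same windows, and a match is a description, not a site. TAATTA, a core that many homeodomains bind, was in 3 of the 14 windows (21.4%: brm, the strongest trx peak and the Psc upstream peak), against 9.28% of all optimal windows and 7.08% of candidates overlapping none. TAATGG, the Islet-type word, was in 1 (7.14%, the strongest osa peak), against 4.55% and 5.21%. The GAGA factor word GAGAG was in 2, the windows of E(z) and the weaker osa peak (14.3%), against 10.13% and 11.7%. The weaker osa summit, at 17700593, lay at the edge of its peak, which ended at 17700594. Its GAGAG match was in the part of the window outside the peak. GCCAT, the core bound by Pho, which brings Polycomb complexes to DNA, was in 1, again the strongest osa peak, against 15.4% and 21.0%. GATAAG was in 1, at the weaker osa peak, against 5.53% of all optimal windows. CGATA, held within TATCGATA, was in none, against 15.3%, nor were TATCGATA (1.43%), GGTCACAC (0.491%) or CAGCTG (4.24%). Of the 14 windows, 8 (57.1%) held none of the 9 words, as did 51.7% of all optimal windows and 49.3% of candidates overlapping none. In windows of 100 bp either side, counts moved for 7 of the 9 words. GAGAG was then in 5 of 14 (35.7%, against 23.8% of all optimal windows), TAATTA in 5 (against 16.7%) and GCCAT in 4 (28.6%, against 28.1%). CGATA and CAGCTG, absent from the narrower windows, were each in 2 (14.3%, against 29.6% and 9.24%), as were TAATGG and GATAAG (against 8.39% and 11.3%).

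The wider pathway was described with 57 other Polycomb and trithorax genes listed from textbook knowledge, of which 54 matched the annotation. An optimal summit lay at 22 of the 54 (40.7%), 10 of 23 on the Polycomb side and 12 of 31 on the trithorax side, beside the 20.6% of all genes. Their regions were longer, with a median of 11577 bp against 6646 bp for all genes, and ran from 5655 to 124787 bp. Of the 12827 protein-coding genes in that range, 23.9% had an optimal summit. The 22 genes held 34 summits, and 8 of them (36.4%) had 2 or more, beside the 19.5% of all genes with any. Of the 54, 11 (20.4%) had a summit nearest to their own start, beside the 9.38% of all genes. The 19.5% and the 9.38% were over genes of any region length. Their strongest signals ran from 70.2 to 423 with a median of 121. Strongest was Trl, which encodes GAGA factor, with signal 423, rank 46 and 4 summits, the strongest of them in an intron. phol, which encodes a relative of Pho, followed with 372, though that summit lay 109 bp from the start of CG3552.

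The next were Dsp1, which encodes an HMG-box protein, with 182, the chromatin remodeler gene kis with 170, the histone demethylase gene Kdm2 with 153 and nej, the CBP acetyltransferase gene, with 151. Kdm2's peak had no match in replicate 2. After these came the remodeler gene Iswi with 144, Bap170, a Brahma complex subunit gene, with 138, psq, which encodes a BTB protein, with 136, and skd, a Mediator subunit gene, with 126. crm had 125 and tna 117. The skd peak had no match in replicate 1. Only Trl, Kdm2, psq and tna, among these 12, were the genes with the start site nearest to their strongest summit. For Dsp1, Iswi, Bap170, skd and crm it was a neighbour, CG9921, muskelin, Vha16-1, CG10584 and Syx4 in that order, and for kis and nej a long non-coding RNA gene. ash2, Asx, Bap111 and Bap55, the first in alphabetical order among the 32 others, had none.

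**Figure D5:**
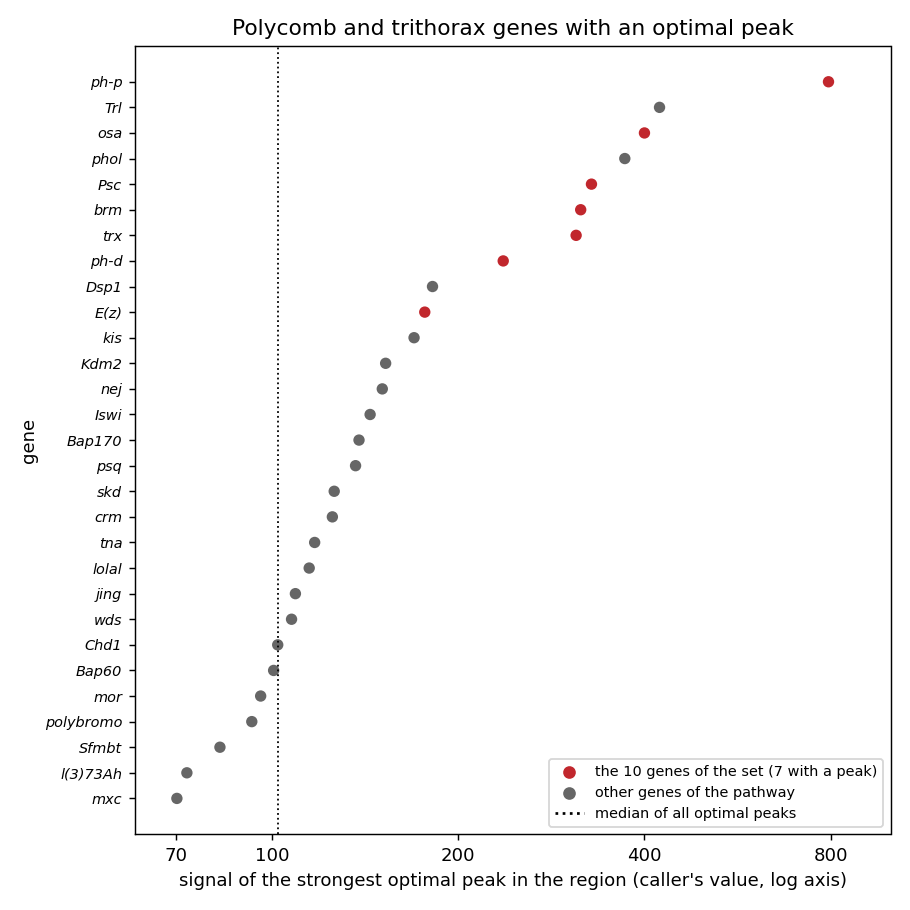
Signal of the strongest optimal peak (caller's value, log axis) at the 7 bound genes among the 10 and at the 22 bound genes among the 54 others. Red points are those 7 genes, grey the 22 others, and the dotted line is the median of all optimal peaks (102). Trl (423) and phol (372) lie highest among the others, and the remaining 20 lie at or below 182.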

How the data were processed

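ChIP-seq was made on 2 replicates of 1 group, and 4 peak lists in dm6 were used: optimal, pooled and 1 per replicate. The signal per peak is the caller's value as deposited by the authors, and served to order and describe peaks. Its scale differs between lists, so ratios between replicates were read only against the median ratio over all matched optimal peaks. The other value used is the summit position within each peak (column 10), as deposited by the authors. The sources used here name no aligner, caller or reproducibility threshold. The dm3 lists were not used, and 0 columns of other samples were present. Genes came from Ensembl release 115 (5889 transposable elements left out), with sequence from RefSeq. Assignment, matching and classes were computed in Python 3.11.15 with pandas 2.3.3 and numpy 2.4.6 and tested on simulated data. Figures used matplotlib 3.10.9. The members and lists were chosen with earlier results of these data known. Named were all 10 genes, the gene nearest each of their optimal peaks, the 12 other pathway genes with the highest signal and the first 4 without a peak. Genes at the edges of the regions, replicate-only peaks and candidates just below the list were named after their values were seen. Calypso, lid and urd matched no single gene and were left out.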

Additional observations from a re-analysis of the deposited data

How the results depend on the processing

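Of 46 alternatives for the counts over genes and peaks, 42 kept the value within 1.5 times. Only summits within 1 kb of a start site of the gene left 4 of the 7 genes (5 of the 14 summits) and 11 of the 22 other genes, since that drops intronic and distant peaks by construction. A promoter distance of 250 bp left 4 of the 7 promoter summits. Without each replicate in turn, genes with a summit ranged from 7 to 8, summits from 15 to 16 and promoter summits from 8 to 9. Genes with a summit nearest to their own start stayed at 6, other genes ranged from 21 to 22 and candidates from 64 to 75. Matched summits need both replicates, so that count could not be taken without one. Of the 15 summits from replicate 1, 13 had a match in replicate 2. Of the 16 from replicate 2, 14 had a match in replicate 1. These values are among the 46 alternatives but do not show stability. Su(z)2 gained its 1 summit, and ph-d a second, in replicate 1 alone. Of 70 alternatives per gene 7 moved. Psc fell to 1 summit with 2 kb upstream, and Psc, osa and trx each fell to 0 within 1 kb of a start site. The others were ash1, which gained 1 by any overlap, and Su(z)2 and ph-d in replicate 1 alone. No paired analysis was possible because both samples belong to 1 group. The unknown depth limits what the absence of a peak can show.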
